A study of Mus musculus with 6 samples.

Results

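Transcripts of 10 growth factors that act on epithelium, blood vessels and stroma were followed in macrophages of the mouse mammary gland. The 10 genes were Vegfa, Vegfb and Vegfc, Pdgfa, Pdgfb and Pdgfc, Hgf, the EGF-family ligands Hbegf and Areg, and Tgfb1, and they were taken by symbol from a table of 24061 gene symbols. All 10 were found in it. The cells came from the inguinal mammary glands of virgin FVB/N mice, with the lymph nodes removed, and were sorted as CD45+CD11b+F4/80+ cells that were Lyve-1+ or Lyve-1-. Lyve-1 is a hyaluronan receptor that marks one subset of tissue macrophages. Each subset had 3 RNA-seq libraries, each made from the pooled cells of 4 mice. Replicate 1 of each subset came from mice of 6 weeks, and replicates 2 and 3 came from mice of 10 weeks. The labels name no transgene or treatment. The comparison asked how the subsets differ in transcripts for factors that signal to neighbouring cells. Nothing in the labels says that the pools shared no mice, so p-values measure the spread between these pools.

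The factors belong to the VEGF, PDGF, HGF, EGF and TGF-beta families. VEGF-A is the main mitogen of blood endothelium, VEGF-C acts on lymphatic vessels through VEGFR-3 (Flt4), and PDGF chains act on fibroblasts and pericytes through Pdgfra and Pdgfrb. HGF is a stromal ligand of the epithelial receptor Met, while amphiregulin (Areg) and HB-EGF (Hbegf) are membrane-anchored ligands of the EGF receptor that are released by proteases, and amphiregulin is known as the EGF-family ligand of ductal growth in the pubertal gland. TGF-beta 1 is secreted in a latent form that is held by latent TGF-beta binding proteins and released by integrins, and it restrains the growth of mammary epithelium.

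Library totals ran from 6478007 to 21406839 counts, so that 3 counts, the limit that a count of 0 allows, stood for 0.144 to 0.437 CPM (counts per 1000000, with library sizes normalized by TMM). Lyve1 itself had 17, 75 and 51 counts in the Lyve-1- libraries and 30871, 16441 and 4735 counts in the Lyve-1+ libraries, which matched the labels. The 7 macrophage markers looked at had counts in every library, and their summed level was 2657 to 3606 CPM in Lyve-1- and 3876 to 5306 CPM in Lyve-1+ libraries. Libraries differed in counts on olfactory receptor genes, which macrophages are not known to use, and 4 to 651 of 1110 such genes had counts. Lyve-1- replicate 3 held the most, 2.65 counts per kb of exon, and a background of this density over the exons of a growth factor would give at most 19.0 counts, for Hgf, which had 124 counts in that library. Fewer cells of a type and less RNA per cell cannot be told apart in these bulk libraries.

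The levels of the factors were compared per length of exon, as RPKM (CPM divided by the length of exon in kb). Vegfa was first in both subsets, at 98.1 ± 52.0 RPKM (SD, n = 3) in Lyve-1- and 45.4 ± 26.1 RPKM in Lyve-1+ macrophages. Areg followed at 49.0 ± 19.5 and 40.9 ± 32.2 RPKM, and Tgfb1 at 39.0 ± 6.57 and 39.4 ± 9.18 RPKM. Over all 6 libraries the mean levels of Vegfa, Areg and Tgfb1 stood at percentiles 96.1, 93.4 and 92.1 of the genes tested. Hbegf came next in both, at 14.8 ± 4.45 and 28.0 ± 7.71 RPKM.

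Below these 4 genes the subsets were ordered differently. In Lyve-1- macrophages Pdgfb came next at 10.5 ± 2.83 RPKM, followed by Vegfb at 6.43 ± 4.09, Pdgfa at 5.11 ± 3.44, Hgf at 1.79 ± 0.958 and Pdgfc at 1.39 ± 0.592 RPKM. In Lyve-1+ macrophages the order was Vegfb at 13.6 ± 2.79, Pdgfc at 13.4 ± 10.0, Pdgfa at 5.55 ± 3.34, Pdgfb at 2.82 ± 0.202 and Hgf at 1.56 ± 1.20 RPKM. Vegfc was last in both, at 0.572 ± 0.960 and 0.630 ± 0.592 RPKM. Most neighbours in these orders did not differ beyond their spread, taken as the root of the summed squared SDs of the pair. In Lyve-1- macrophages the means of Tgfb1 and Hbegf differed by more than that, and in Lyve-1+ macrophages those of Hbegf and Vegfb and those of Pdgfb and Hgf. These pairs were in the same order in 3 of 3 libraries. The orders also rested on the length used. With the longest transcript in place of all exons, Pdgfb and Hgf in Lyve-1+ macrophages no longer differed beyond their spread, at 3.99 ± 0.285 and 3.23 ± 2.496 RPKM. At the top, Tgfb1 led in Lyve-1+ macrophages at 77.3 RPKM, ahead of Vegfa at 56.4, Hbegf at 46.9 and Areg at 40.9 RPKM.

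**Figure D1:**
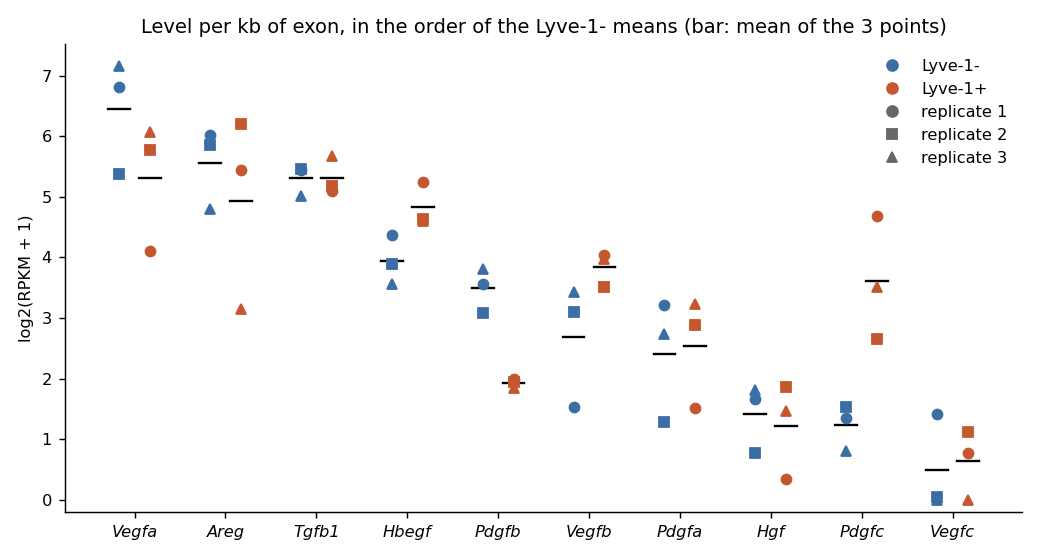
Level of the 10 growth factor genes in each library as log2(RPKM + 1), with genes ordered by their mean in Lyve-1- macrophages, points for libraries and a bar for the mean of each subset (n = 3). Vegfa, Areg and Tgfb1 lie at the top in both subsets, Vegfc lies at the bottom, and Pdgfc lies below Pdgfb in Lyve-1- and above it in Lyve-1+ macrophages.

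The upstream sequence of 3 genes is shown because they span the patterns that follow, Pdgfc being higher in one subset, Areg variable between libraries and Tgfb1 near level. The windows are the 250 bases before the RefSeq start on GRCm38.p6, all on the + strand, at chr3:81036166-81036415 for Pdgfc, chr5:91139349-91139598 for Areg and chr7:25686752-25687001 for Tgfb1. Capitals mark matches on either strand. One motif is the GC box, spelled GGGCGG, which many promoters without a TATA box carry. Another is the TATA box, spelled TATAAA, which places the start of transcription. The third is the core of sites for PU.1, a master regulator of macrophages, spelled GAGGAA. AP-1 sites (TGANTCA) and a hypoxia response core (ACGTG) were also searched and had no match in these windows.
Pdgfc: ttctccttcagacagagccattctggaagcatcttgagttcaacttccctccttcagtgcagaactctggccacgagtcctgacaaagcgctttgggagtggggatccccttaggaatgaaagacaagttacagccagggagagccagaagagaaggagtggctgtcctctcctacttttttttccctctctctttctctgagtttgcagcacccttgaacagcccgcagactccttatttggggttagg
Areg: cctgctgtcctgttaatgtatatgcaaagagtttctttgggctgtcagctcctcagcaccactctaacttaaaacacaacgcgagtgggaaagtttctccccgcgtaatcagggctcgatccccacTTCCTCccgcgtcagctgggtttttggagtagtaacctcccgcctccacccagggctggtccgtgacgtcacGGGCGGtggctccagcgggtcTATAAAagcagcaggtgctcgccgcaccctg
Tgfb1: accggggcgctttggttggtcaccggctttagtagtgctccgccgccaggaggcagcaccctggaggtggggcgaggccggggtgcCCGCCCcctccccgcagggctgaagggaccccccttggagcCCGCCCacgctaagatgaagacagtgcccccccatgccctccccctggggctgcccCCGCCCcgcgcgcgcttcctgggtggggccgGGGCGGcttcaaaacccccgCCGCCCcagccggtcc
The Tgfb1 window was 75.2% G and C and held 5 GC boxes. The Areg window was 57.2% G and C and held 1 GC box, 1 TATA box and 1 PU.1 core, and the Pdgfc window, at 50.8%, held none of the motifs. Of 32851 windows of the same length, 32.7% held a GC box, 12.4% a TATA box, 23.3% a PU.1 core, 6.75% an AP-1 site and 16.6% a hypoxia response core. Windows were found for 8 of the 10 genes, 11 windows in all, and 6 of these genes had a GC box in any window. That count is per gene, whereas the 32.7% is per window. Those without an entry were Pdgfb and Hbegf. A match describes letters and is not evidence of binding.

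Between the subsets, Pdgfc, Hbegf and Vegfb were higher in every Lyve-1+ library than in any Lyve-1- library, and Pdgfb was lower in every one. Counts were compared with edgeR's quasi-likelihood test with Benjamini-Hochberg adjustment over 13348 genes, and genes were called where the adjusted p was below 0.01 and the log2 fold change, up or down, was between 1 and 10. By this rule 0 of the 10 growth factors were called, beside 0.112% of all genes, and DESeq2 called 1 of them. The sort marker Lyve1 was not called by it either, with a log2 fold change of 7.93 (adjusted p = 0.0254, edgeR). At an adjusted p under 0.05 there was 1 growth factor, Pdgfc, which was higher in Lyve-1+ macrophages. This stood beside 0.629% of all genes in either direction and 0.450% in that direction. At an unadjusted p under 0.05, 2 were higher (Pdgfc and Hbegf) and 1 was lower (Pdgfb) in Lyve-1+ macrophages, beside 4.20% and 3.50% of all genes in those directions and 7.69% in either. Values did not overlap between the subsets for 3 genes that were higher and 1 that was lower, beside 7.82% and 6.50% of all genes. The median log2 fold change of the 10 was 0.07, and that of all genes tested was -0.01. The common biological coefficient of variation was 0.931, which limits what 3 libraries a subset can show.

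**Figure D2:**
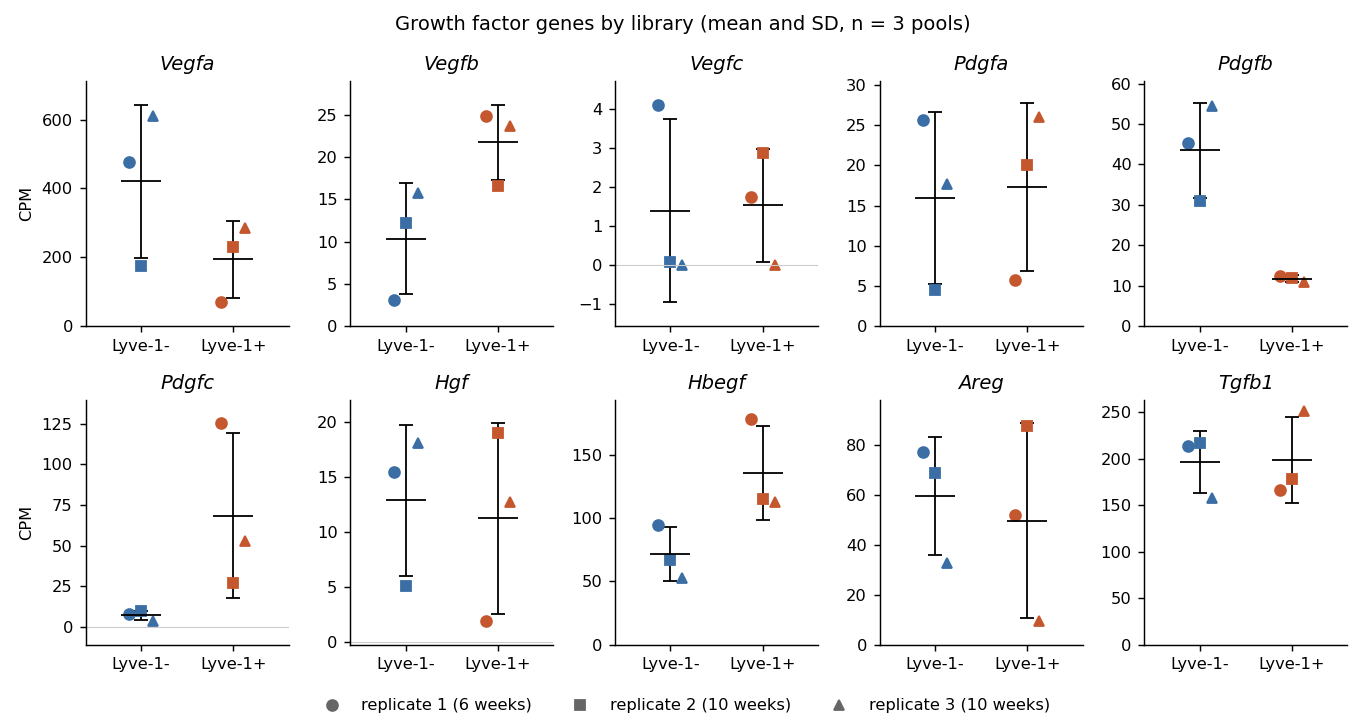
Normalized counts (CPM) of each growth factor in the 6 libraries, one panel a gene, with points for libraries, a line for the subset mean and a bar for its SD (n = 3). Pdgfc, Hbegf and Vegfb lie higher in all Lyve-1+ libraries, Pdgfb lies lower, and the subsets overlap for the other 6 genes.

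**Figure D3:**
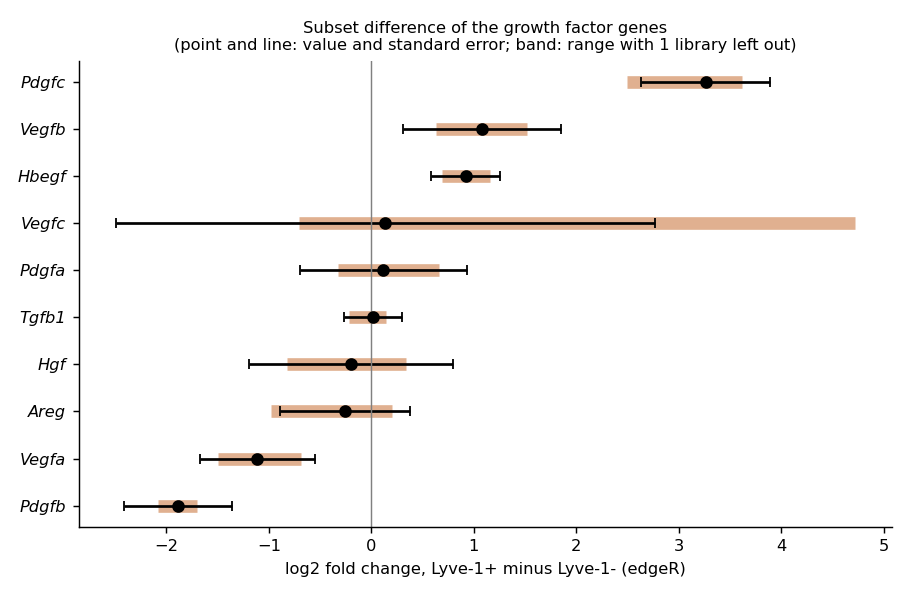
Log2 fold change of each growth factor, Lyve-1+ against Lyve-1-, from edgeR with its SE, and a band for the range when each library is left out in turn. The band of Pdgfc runs from 2.49 to 3.62 and that of Pdgfb from -2.08 to -1.70, while those of Vegfc, Pdgfa, Hgf, Areg and Tgfb1 cross 0.

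Among the 10 factors, 2 PDGF chains had the largest log2 fold change in each direction, Pdgfc upward and Pdgfb downward. Pdgfc encodes PDGF-CC, a ligand of Pdgfra that needs proteolytic activation, and lies at chr3:81036416-81214040 on the + strand (mm10). Its level was 7.81, 9.68 and 3.79 CPM in Lyve-1- replicates 1, 2 and 3 and 125, 27.0 and 53.0 CPM in Lyve-1+ replicates 1, 2 and 3. The subsets did not overlap, and Lyve-1+ replicate 1 was far above the others. The means were 7.10 ± 3.01 and 68.4 ± 50.9 CPM (SD, n = 3), and the log2 fold change was 3.26 (SE 0.63, adjusted p = 0.0326, edgeR). The adjusted p was 0.00013 with DESeq2 and lay between 1.18e-05 and 0.560 over the 16 alternatives. It was 0.373 without Lyve-1+ replicate 1, with a log2 fold change of 2.49, and 0.000623, past the threshold, without Lyve-1+ replicate 2. Pdgfc is also among the genes that the study picked from these libraries, so its direction is not independent evidence.

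In the 10-week libraries alone the Pdgfc log2 fold change was 2.54 (adjusted p = 0.560, edgeR), and the fitted difference at 6 weeks, between 1 library of each subset, was 4.00. The change in the difference between the ages had an unadjusted p of 0.231. The background of Lyve-1- replicate 3 would give 13.5 of the 26 Pdgfc counts of that library, and with the background subtracted the log2 fold change was 3.39 (adjusted p = 0.0501, edgeR).

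Markers of fibroblasts, the main cell that PDGF acts on, were in sum higher in the Lyve-1+ libraries, as Pdgfc was. All 6 were counted in every library, and their sum was 202 to 271 CPM in Lyve-1- and 345 to 1173 CPM in Lyve-1+ libraries, with 2 of the 6 higher without overlap. The sum was above the Lyve-1- range in each Lyve-1+ library, at 383, 345 and 1173 CPM in replicates 1, 2 and 3. Within the Lyve-1+ libraries the sum was highest in replicate 3, while Pdgfc was highest in replicate 1. The Pdgfc log2 fold change was 3.38 without replicate 3 (adjusted p = 0.0105, edgeR). The part of these cells in the Pdgfc values was not tested. The genes whose log2 CPM followed Pdgfc most closely over the 6 libraries were Tgfbr2 (r = 0.9975) and the glutathione transferase Gstm1 (r = 0.9975). The ubiquitin ligase March1 came next (r = 0.994). These are correlations over 6 libraries of 2 subsets, so any gene that differs between the subsets shares part of the pattern.

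**Figure D4:**
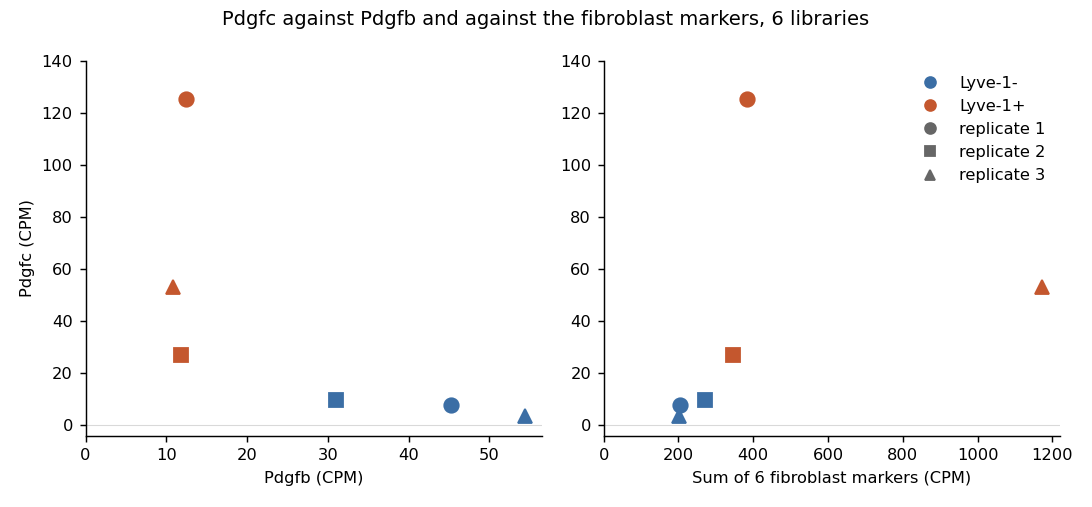
Pdgfc in each library against Pdgfb and against the sum of 6 fibroblast markers, in CPM. Lyve-1+ libraries combine high Pdgfc with low Pdgfb, and the fibroblast sum is 202 to 271 CPM in the Lyve-1- and 345 to 1173 CPM in the Lyve-1+ libraries.

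Pdgfb encodes the PDGF-B chain, which recruits pericytes through Pdgfrb, and lies at chr15:79995874-80014977 on the - strand. It was at 45.2, 31.0 and 54.4 CPM in the Lyve-1- libraries and at 12.5, 11.9 and 10.8 CPM in the Lyve-1+ libraries. The Lyve-1+ libraries were close together, with a coefficient of variation of 7.15%, and all were below the Lyve-1- libraries. The means were 43.5 ± 11.8 and 11.7 ± 0.839 CPM, a 3.70-fold difference, and the log2 fold change was -1.89 (SE 0.53, adjusted p = 0.18, edgeR), which did not pass the threshold. The adjusted p ranged from 0.0268, with DESeq2, to 0.790 over the alternatives, and the log2 fold change was -1.90 in the 10-week libraries alone. Marker sums of some other leukocytes were also lower without overlap in Lyve-1+ libraries. For 3 T cell genes the sums were 55.5 to 79.7 against 7.77 to 53.3 CPM. Of these, Cd3g alone was lower without overlap, while Cd3e overlapped and Cd3d was near level (means of 10.3 and 10.1 CPM). For 5 conventional dendritic cell genes the sums were 194 to 639.5 against 42.5 to 159 CPM. The largest part was Ccr7 (means of 367 against 60.3 CPM). Ccr7 and Xcr1 were lower without overlap, while Flt3, Zbtb46 and Clec9a overlapped. Type 2 innate lymphoid cells had 5 listed genes, of which 3 were counted in every library and 1 was lower without overlap. Their sums were 182 to 374 against 44.6 to 93.6 CPM. Most of that last sum was Il1rl1 (means of 183 against 44.55 CPM) and Il7r (82.8 against 22.2 CPM). The platelet list, which marks another known source of PDGF-B, overlapped, at 22.4 to 75.7 against 14.2 to 28.0 CPM. Other sums overlapped and reached higher in Lyve-1+ libraries. They were 10.4 to 47.5 against 29.0 to 232.5 CPM for neutrophils and 3.025 to 29.6 against 10.1 to 84.2 CPM for B cells. Mast cells and basophils were at 32.8 to 72.1 against 29.9 to 187.7 CPM. The part of these cells in the Pdgfb values was not tested.

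Pdgfa encodes the PDGF-A chain and lies at chr5:138976014-138997370 on the - strand. It was at 25.7, 4.44 and 17.6 CPM in the Lyve-1- libraries and at 5.79, 20.03 and 26.1 CPM in the Lyve-1+ libraries. The subsets overlapped over most of their range, and the log2 fold change was 0.12 (SE 0.82, unadjusted p = 0.887). It turned below 0, to -0.32 at the lowest, without Lyve-1- replicate 2 or without Lyve-1+ replicate 2 or 3. It shares 813 bases of exon with an antisense gene, 6330403L08Rik, and whether the counting used strand is not given in the sources used here. Pdgfc likewise shares 147 bases with the antisense gene Gm16000, so reads there cannot be assigned to one gene.

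Within each library, the balance of Pdgfc and Pdgfb transcripts was on opposite sides in the subsets. There were 0.173, 0.312 and 0.0697 Pdgfc counts for each Pdgfb count in the Lyve-1- libraries, and 10.0, 2.27 and 4.89 in the Lyve-1+ libraries. The mean log2 ratio was -2.68 ± 1.09 and 2.27 ± 1.07, a difference of 4.95. The pair was chosen after the values of both genes were seen, with subsets that do not overlap in opposite directions. This separation therefore follows from the choice, and no p-value is given for it. The ratio does not depend on the scaling between libraries.

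Of the VEGF genes, Vegfa was high in both subsets and spread widely between pools. It lies at chr17:46016993-46032369 on the - strand. Its level was 477, 175 and 610 CPM in the Lyve-1- libraries and 69.3, 231 and 284 CPM in the Lyve-1+ libraries. Lyve-1- replicate 2 fell within the Lyve-1+ range. The means were 420 ± 223 and 195 ± 112 CPM, and the log2 fold change was -1.11 (SE 0.56, adjusted p = 0.745, edgeR). The fitted difference was -2.78 at 6 weeks and -0.61 at 10 weeks, and the change between the ages had an unadjusted p of 0.038 and an adjusted p of 0.976 (edgeR).

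Vegfb, which encodes a ligand of VEGFR-1, lies at chr19:6982473-6987651 on the - strand. It was at 3.02, 12.2 and 15.7 CPM in the Lyve-1- libraries and at 24.9, 16.6 and 23.7 CPM in the Lyve-1+ libraries. The subsets did not overlap, but Lyve-1+ replicate 2 lay close to Lyve-1- replicate 3. The log2 fold change was 1.08 (SE 0.77, adjusted p = 0.969, edgeR). Vegfc, at chr8:54077606-54187096 on the + strand, had 49, 1 and 0 counts in the Lyve-1- libraries and 23, 60 and 0 counts in the Lyve-1+ libraries. A library of each subset had none, and the difference was not measurable at these counts. The log2 fold change was 0.14 (SE 2.63) and ran from -0.71 without Lyve-1+ replicate 2 to 4.72 without Lyve-1- replicate 1.

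The EGF-family ligands Hbegf and Areg were among the 4 members with the highest levels per length in both subsets, and neither passed the test between them. Hbegf, on chromosome 18, was at 94.9, 67.2 and 52.5 CPM in the Lyve-1- libraries and at 178, 115 and 113 CPM in the Lyve-1+ libraries. The ranges of the subsets were apart, and replicate 1 was the highest of each subset. The means were 71.5 ± 21.5 and 135 ± 37.2 CPM, a 1.89-fold difference, and the log2 fold change was 0.92 (SE 0.34, adjusted p = 0.409, edgeR). It stayed between 0.69 and 1.16 when each library was left out, and was 0.92 in the 10-week libraries alone.

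Areg lies at chr5:91139599-91148432 on the + strand. It was at 77.2, 68.7 and 32.6 CPM in the Lyve-1- libraries and at 51.8, 87.7 and 9.58 CPM in the Lyve-1+ libraries. The highest and the lowest values were both in the Lyve-1+ subset and 9.16-fold apart. The log2 fold change was -0.26 (SE 0.63, unadjusted p = 0.689), and it turned to 0.20 without Lyve-1+ replicate 3. Epithelial markers, 7 of 8 of which were counted in every library, had sums of 289, 41.9 and 180 CPM in the Lyve-1- libraries and of 85.7, 94.1 and 60.4 CPM in the Lyve-1+ libraries. Their part in the Areg values was not tested.

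Hgf, the scatter factor, lies at chr5:16553495-16620152 on the + strand. It was at 15.5, 5.06 and 18.1 CPM in the Lyve-1- libraries and at 1.91, 19.0 and 12.7 CPM in the Lyve-1+ libraries. Lyve-1+ libraries spanned 9.99-fold and covered the Lyve-1- range, and the log2 fold change was -0.20 (SE 1.00, unadjusted p = 0.847). It turned above 0 when Lyve-1- replicate 3 or Lyve-1+ replicate 1 was left out (0.33 in the latter case) and in the 10-week libraries alone (0.47), and Hgf shares 484 bases of exon with Gm43489 on the same strand.

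Tgfb1, at chr7:25687002-25705077 on the + strand, varied least between pools of the more abundant factors. It was at 214, 217 and 158 CPM in the Lyve-1- libraries and at 166, 178 and 252 CPM in the Lyve-1+ libraries. The highest value was 1.37 times the lowest in Lyve-1- and 1.51 times in Lyve-1+ libraries. The means were 196 ± 33.1 and 199 ± 46.3 CPM, and the log2 fold change was 0.02 (SE 0.28, unadjusted p = 0.955). Its sign changed with the scaling, and leaving out single libraries moved it between -0.22 and 0.14.

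Among the other genes of these pathways, the receptors were the list with the largest number of genes that were higher in Lyve-1+ macrophages without overlap. Of 18 receptors and co-receptors, 16 were tested and 0 were called (0.112% of all genes), while 4 were higher and 0 lower at an unadjusted p under 0.05, beside 4.20% and 3.50% of all genes. Without overlap 6 were higher and 0 lower, beside 7.82% and 6.50% of all genes, and the median log2 fold change of the 16 was 0.15. Nrp1, a co-receptor of VEGF-A, was at 201, 246 and 190 CPM in the Lyve-1- and 905, 474 and 474 CPM in the Lyve-1+ libraries, with a log2 fold change of 1.54 (SE 0.30, adjusted p = 0.0326, edgeR). Egfr, the receptor of Areg and Hbegf, was at 16.4, 35.9 and 31.9 CPM and at 155, 67.5 and 142 CPM, with a log2 fold change of 2.11 (SE 0.43, adjusted p = 0.0391). Both passed the threshold with DESeq2 (adjusted p of 4.67e-05 for Nrp1 and 0.000889 for Egfr) and without Lyve-1+ replicate 2 (0.00417 and 0.00183), and Nrp1 also without Lyve-1+ replicate 3 (0.00875). The adjusted p was as high as 0.414 for Nrp1 and 0.441 for Egfr over the alternatives, both in the 10-week libraries alone.

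Pdgfra, the receptor of PDGF-CC and a fibroblast marker, was at 23.4, 23.9 and 37.0 CPM in the Lyve-1- and 88.8, 49.5 and 205 CPM in the Lyve-1+ libraries, and its highest value was in the library with the highest fibroblast sum. Pdgfra is 1 of the 6 genes in that sum. Its log2 fold change was 2.03 (SE 0.48, adjusted p = 0.088, edgeR), and 1.28 without Lyve-1+ replicate 3. It passed the threshold with DESeq2 (adjusted p = 0.00781) and without Lyve-1+ replicate 2 (0.00243), and its adjusted p was as high as 0.455 over the alternatives. Tgfbr2, a TGF-beta receptor, was at 280.5 ± 55.3 and 590 ± 174 CPM (log2 fold change 1.07, adjusted p = 0.141), with an adjusted p from 0.00915, with DESeq2, to 0.863 over the alternatives. The VEGF-C co-receptor Nrp2 and the TGF-beta co-receptor Tgfbr3 were also higher without overlap, with log2 fold changes of 0.42 and 0.94. Flt4, the receptor of VEGF-C, had 0, 0 and 95 counts in the Lyve-1- and 22, 103 and 0 counts in the Lyve-1+ libraries, and had the lowest log2 fold change of the list at -1.05, which turned positive in 3 of the alternatives. Nrp1, Pdgfra, Tgfbr2, Nrp2 and Tgfbr3 were chosen after their values were seen.

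Genes that activate or release the ligands were mixed. Of 23 in the list, which holds proteases, integrins and latent TGF-beta binding proteins, 21 were tested, with a median log2 fold change of -0.21. At an unadjusted p under 0.05, 1 was higher and 1 lower, beside 4.20% and 3.50% of all genes. Without overlap 2 were higher and 1 lower, beside 7.82% and 6.50% of all genes. Ltbp1, which tethers latent TGF-beta to matrix, was at 3.85 ± 4.52 CPM in Lyve-1- and 22.2 ± 8.51 CPM in Lyve-1+ libraries (log2 fold change 2.54, SE 1.13, adjusted p = 0.599, edgeR). Itgav, a subunit of the integrins that release TGF-beta, was lower without overlap, at 106 ± 27.5 and 37.9 ± 28.8 CPM (log2 fold change -1.48, adjusted p = 0.305), and was chosen after its values were seen. Its partner Itgb8 had the lowest log2 fold change of the list, -4.68, with 0, 312 and 26 counts in the Lyve-1- and 0, 24 and 0 counts in the Lyve-1+ libraries. A single Lyve-1- library therefore held most of the Itgb8 counts.

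The list of TGF-beta signalling genes and targets held the Smad genes that carry the signal, its inhibitors and genes that respond to it. All 10 were tested and 0 were called, beside 0.112% of all genes. At an unadjusted p under 0.05, 1 was higher and 2 were lower, beside 4.20% and 3.50% of all genes. Without overlap 0 were higher and 4 lower, beside 7.82% and 6.50% of all genes. The log2 fold change was above 0 for 2 and below 0 for 8, with a median of -0.54, while it was below 0 for 6754 of all 13348 genes. The feedback inhibitor Skil was at 788, 871 and 1010 CPM in the Lyve-1- and 240, 510 and 565 CPM in the Lyve-1+ libraries, with a log2 fold change of -1.02 (SE 0.30, adjusted p = 0.224, edgeR), and it was chosen after its values were seen. Smad7, another inhibitor, was at 46.1 ± 12.7 and 20.1 ± 9.36 CPM (log2 fold change -1.19, adjusted p = 0.564). Tgfbi, a secreted matrix protein, had the highest log2 fold change of the list, 0.67 (SE 0.26, adjusted p = 0.464).

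In the hypoxia response list, which was looked at beside Vegfa, 13 of 15 genes were tested. None was higher and 1 was lower at an unadjusted p under 0.05, beside 4.20% and 3.50% of all genes, and the median was -0.03. Without overlap 0 were higher and 2 lower, beside 7.82% and 6.50% of all genes. The gene with the unadjusted p under 0.05 was Slc2a1, a glucose transporter. It was at 62.9 ± 7.32 CPM in Lyve-1- and 26.8 ± 11.1 CPM in Lyve-1+ libraries (log2 fold change -1.24, SE 0.44, adjusted p = 0.391, edgeR). Egln1, a prolyl hydroxylase that senses oxygen, had the highest log2 fold change, 0.84.

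**Figure D5:**
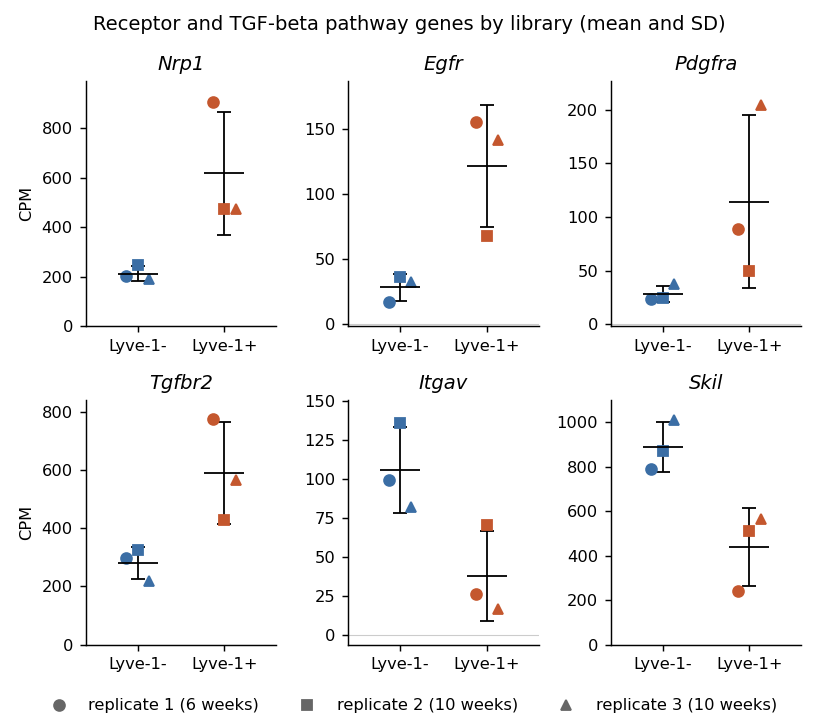
Normalized counts (CPM) of 5 receptor or activation genes (Nrp1, Egfr, Pdgfra, Tgfbr2, Itgav) and of the TGF-beta target Skil in the 6 libraries, with the mean and SD of each subset (n = 3). Nrp1, Egfr, Pdgfra and Tgfbr2 lie higher and Itgav and Skil lie lower in all Lyve-1+ libraries.

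Of 15 other ligands of the same families, 9 were tested with edgeR and 0 were called, beside 0.112% of all genes. None had an unadjusted p under 0.05, beside 7.69% of all genes. The VEGF-D gene, listed as Figf, had 0, 0 and 2 counts in the Lyve-1- libraries and 38, 22 and 48 counts in the Lyve-1+ libraries. The ratio of summed counts, scaled for library size, was 38.6 with a 95% counting interval of 10.4 to 323. This interval covers counting error only and leaves out the spread between pools. The adjusted p of edgeR was 0.835. Egf had the lowest log2 fold change of the list, -2.63, on 27, 0 and 28 against 13, 0 and 0 counts.

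Of 13 other stromal growth factors, 10 were tested, with a median log2 fold change of 1.22. At an unadjusted p under 0.05, 1 was higher and 0 lower, beside 4.20% and 3.50% of all genes. Fgf9 had 0, 0 and 8 counts in the Lyve-1- and 253, 89 and 54 counts in the Lyve-1+ libraries (log2 fold change 4.73, SE 2.24, adjusted p = 0.657, edgeR). Bmp4, a bone morphogenetic protein, had 0, 88 and 44 counts in the Lyve-1- and 17, 1 and 1 counts in the Lyve-1+ libraries (log2 fold change -3.25). Bmp2, chosen after its values were seen, was the gene with the unadjusted p under 0.05. It was at 14.3, 32.8 and 18.2 CPM and at 146, 128 and 17.3 CPM, so that Lyve-1+ replicate 3 lay within the Lyve-1- range. Over the 6 lists together, 79 of 94 genes were tested and 0 were called, 7 were higher and 4 lower at an unadjusted p under 0.05 (4.20% and 3.50% of all genes), and 10 were higher and 7 lower without overlap (7.82% and 6.50% of all genes).

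The 10-week libraries were then compared with the 6-week libraries in a model that also held the subset. By the same rule 0 of all genes were called (0%), and 0 of the 10 growth factors had an unadjusted p under 0.05, beside 3.33% of all genes. Only 1 library of each subset was from 6-week mice, so that age and library cannot be told apart. The smallest p was that of Hbegf, which was lower at 10 weeks with a log2 fold change of -0.66 (SE 0.32, unadjusted p = 0.0581). Pdgfc followed at -1.0 (unadjusted p = 0.101). Where the subset difference was allowed to differ between the ages, 1 growth factor, Vegfa, had an unadjusted p under 0.05, beside 4.59% of all genes, and 0 were called.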

How the data were processed

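The data are RNA-seq libraries of sorted macrophages, 3 a subset. The authors aligned reads of a stranded total RNA kit to mm10 (GRCm38) with HISAT2 2.0.2 and counted them per gene with featureCounts 1.5.0 of Subread. The deposited values are raw counts for 24061 symbols, without normalization. The annotation and the strand setting are not given in the sources used here. The methods name DESeq2, a removal of short genes and an outlier library of 6 weeks that was removed.

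Counts were analysed with edgeR 4.0.16, limma 3.58.1 and R 4.3.3. The filterByExpr function, grouped by subset, left 13348 genes, which were normalized by TMM and compared by the quasi-likelihood F test with robust estimation, with the subset as the only term, Benjamini-Hochberg adjustment and the limits given above. Log2 CPM in correlations used a prior count of 2. Exon lengths and positions came from GENCODE M21 on mm10, in which 22749 symbols matched directly, 916 by a synonym and 396 not at all. Intervals and limits for low counts cover counting error only.

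The alternatives were DESeq2 1.42.0, edgeR with the size factors of DESeq2 or with total library size, no filter, a minimum of 10 counts in all libraries, a block for the replicate number, a term for age, 10-week libraries alone, removal of ribosomal, small and mitochondrial RNA genes, subtraction of the olfactory receptor background, each library left out, and an adjusted p under 0.05. The members and gene lists were chosen with earlier results of these data known. All 10 members were named, as were from each other list any gene called and the tested gene with the highest and lowest log2 fold change, Lyve1, and the 3 genes most correlated with the growth factor of smallest p. Any other gene is marked in the text as picked with its values in view, apart from cell type markers. The markers named to describe a marker sum were also picked with their values in view.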

Additional observations from a re-analysis of the deposited data

Results flagged for a closer look

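Lyve1, the gene of the sort marker, had an interaction of subset and age past an adjusted p of 0.05, though not of 0.01. The log2 fold change was 10.67 at 6 weeks and 6.62 at 10 weeks, a change of -4.06 (SE 0.58) with an adjusted p of 0.0466 for the interaction in edgeR's quasi-likelihood test. The 6-week side is 1 library of each subset, so age and library cannot be told apart, with 17 counts in Lyve-1- replicate 1 and 30871 counts in Lyve-1+ replicate 1.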

How the results depend on the processing

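The number of genes called, 15 (14 higher and 1 lower in Lyve-1+ macrophages), was 159 with DESeq2 (97 and 62), 188 with no filter (116 and 72), 32 with at least 10 counts in every library (27 and 5), 58 with age as a covariate (37 and 21) and 84 at an adjusted p under 0.05 with no fold limit. It ran from 1, without Lyve-1- replicate 3, to 81, without Lyve-1+ replicate 2, when each library was left out. Of the growth factors 0 were called, and 1, Pdgfc, was called with DESeq2, with no filter, with the replicate block, at an adjusted p under 0.05 and without Lyve-1+ replicate 2 (range 0 to 1 with each library left out). For age, 0 genes were called, 12 with no filter and 0 to 20 with each library left out, and 0 growth factors throughout. The causes were not tested.

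The log2 fold change of Hgf was 0.47 in the 10-week libraries alone. That of Tgfb1 was -0.0099 with DESeq2, -0.0096 with DESeq2 size factors, -0.042 with total size, -0.0034 without ribosomal, small and mitochondrial RNA genes and -0.0030 with the background subtracted. That of Flt4 was 0.032 with age as a covariate. With each library left out, the log2 fold change ran from -0.71 to 4.72 for Vegfc, from -0.32 to 0.66 for Pdgfa, from -0.82 to 0.33 for Hgf, from -0.98 to 0.20 for Areg, from -0.22 to 0.14 for Tgfb1 and from -2.43 to 7.85 for Flt4. Pdgfb, Pdgfc, Hbegf, Vegfa and Vegfb kept their direction in every alternative in which they were tested.

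With the replicate number as a block, 140 genes (87 higher and 53 lower) were called, the Pdgfc log2 fold change was 3.12 (adjusted p = 0.00225, edgeR) and that of Flt4 was 5.24. Nrp1, Egfr, Pdgfra and Skil were also called with the block (adjusted p of 0.000611, 0.00449, 0.00824 and 0.00691), and Nrp1, Egfr and Pdgfra with no filter (9.3e-05, 0.000118 and 0.000351). Whether same-numbered libraries came from the same pool of mice is not stated in the labels. Deviations of same-numbered libraries correlated at -0.046, -0.002 and -0.147, and no library correlated best with its own number. With 3 libraries a subset, these correlations cannot decide whether the samples were paired.

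Low counts limit Vegfc, Figf, Flt4, Egf, Ltbp1, Itgb8, Fgf9 and Bmp4, which had 3 or fewer counts in at least 1 library. Detection did not follow the library total. Lyve-1- replicate 3 had the lowest total and the most genes with counts, 20353, against 11958 in Lyve-1- replicate 1. The median over the genes tested shifted by -0.03 on the log2 scale with DESeq2 size factors and by -0.07 with total size.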
